A study of Mus musculus with 3 samples.

Results

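Late granular keratinocytes with high Lce1 expression, in single-cell data of mouse ear epidermis, numbered 123 of 5340 kept cells. They were chosen by measured values: at least 1% of a cell's unique molecular identifiers (UMIs, which count captured RNA molecules) from Lor, which encodes loricrin, and at least 2% from the 14 late cornified envelope 1 (Lce1) genes together. The cells came from ear epidermis of C57BL/6N mice aged 9 weeks, profiled in 3 droplet single-cell RNA libraries that form 1 group, with no treatment or mutation given in the labels. Per the labels' protocols the epidermis was lifted with dispase II, cells were released with Trypsin/EDTA from its basal side and cryopreserved, and the libraries were made with a V(D)J kit to which short cDNA was added back. The labels do not say whether the libraries came from separate animals, so p-values measure the spread between these libraries, which may be technical. The late cells were set against 302 early granular cells, which pass the same Lor threshold with less than 2% of UMIs from Lce1 genes, and, where stated, against 2262 spinous cells, with at least 0.5% of UMIs from Krt10 and neither granular criterion.

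Granular keratinocytes form the last living layer of the epidermis. They make loricrin, filaggrin and other proteins that transglutaminases cross-link under the plasma membrane into the cornified envelope, and they release lipids from lamellar bodies that seal the spaces between cells. Each cell then loses its nucleus and organelles and becomes a corneocyte, and the Lce1 genes, which lie in the epidermal differentiation complex, are among the last to be switched on.

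The late cells numbered 12, 51 and 60 in replicates 1, 2 and 3, the order used for every list of values below. These were 1.27% (95% exact binomial interval 0.659 to 2.21%), 2.31% (1.72 to 3.02%) and 2.75% (2.10 to 3.52%) of the kept cells, with a mean of 2.11 ± 0.758% (SD, n = 3 libraries). These intervals take barcodes as independent cells. Some late barcodes of a library had near-equal shares, such as 19.8 and 19.9% Lce1 with 2.95 and 2.90% Lor in replicate 3. Whether such barcodes came from 1 cell was not tested. Among granular cells alone, late cells made up 21.1%, 31.3% and 29.3%. Lce1 genes took 2.17 to 58.0% of a late cell's UMIs with a median of 11.6%, and Lor took 2.32 to 17.7% with a median of 8.66%. No kept cell passed the Lce1 threshold without passing the Lor threshold. The lowest late cell of each library stood at 2.29%, 2.17% and 2.33% Lce1, and the highest early cell at 1.94%, 1.90% and 1.95%, so the class is a range cut from a continuous measure: 13 late cells lay under 3%, 19 early cells lay above 1%, and 105 early cells had no Lce1 UMI.

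**Figure D1:**
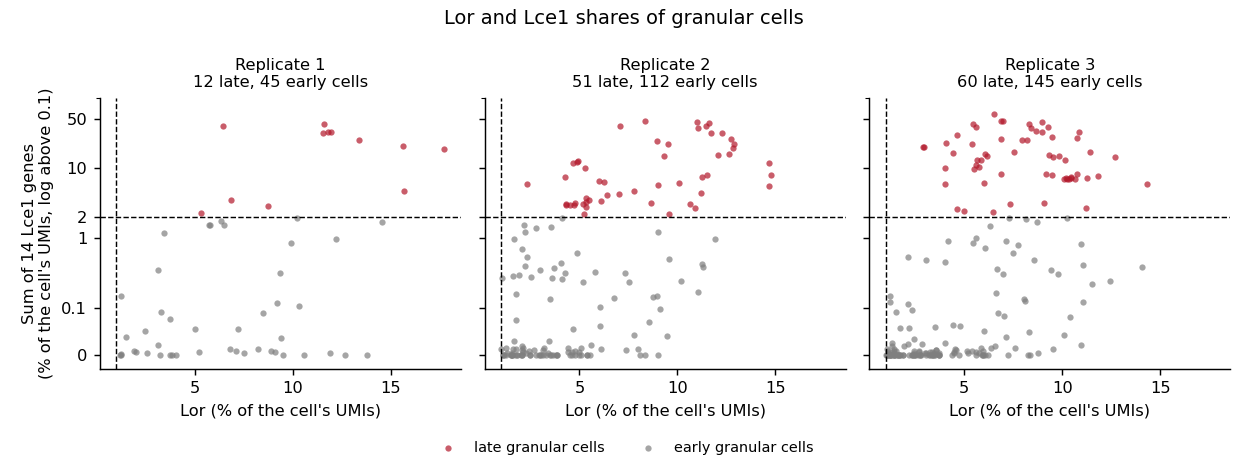
Each point is a granular cell of 1 of the 3 libraries, by its Lor share (x, % of UMIs) and its summed Lce1 share (y, % of UMIs, logarithmic above 0.1); dashed lines mark the thresholds of 1% and 2%. Late cells spread from 2.17 to 58.0% Lce1 with no gap at the threshold, and overlap with early cells in Lor.

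Libraries held 15926683, 24480473 and 28176712 UMIs over 6078 barcodes, of which 738 were left out for fewer than 500 genes or more than 10% mitochondrial UMIs. Basal cells, which should lack both products, held any Lce1 UMI in 9.50, 10.1 and 22.2% and any Lor UMI in 23.1, 24.6 and 42.5% of cells, at median depths of 12222, 7422 and 8655 UMIs, against 30184, 19882 and 26189.5 UMIs in late cells. The Lce1 UMIs of basal cells were split among the genes much as in late cells: Lce1m made up 29.8, 30.2 and 28.2% in basal cells, 25.5, 37.5 and 22.6% in late cells and 69.5, 77.7 and 63.1% in early cells. A doublet caller marked 30 of the 5340 cells, 1 of them early and 0 late. A barcode was shared between libraries 16 times, and 1 late cell carried such a barcode.

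The 14 measured Lce1 genes lie on chromosome 3 of GRCm38 between positions 92646535 and 93019060, a stretch of 373 kb. All but Lce1c are on the minus strand. Lce1a1 to Lce1l fill the first 205 kb, and Lce1m stands apart at the far end. Lor lies on the same strand at 92080271 to 92083142. The coding sequences of Lce1 genes are alike, and no source used here says how reads shared between them were assigned, so counts of single paralogs are uncertain where copies are near-identical.

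Promoters from 250 bases before to 50 bases after the start were read from RefSeq (GRCm38.p6) for Lor and for 13 of the 14 Lce1 genes. They are shown for Lor, for Lce1m, the most abundant Lce1 gene, for Lce1a1, the next, and for Lce1e, which holds all of the shared words described below. Capitals mark matches, on either strand, to TATAAAA, to the AP-1-type motif TGANTCA, and to ACTGTCTCACA, TCAGAATAAAA and ACAGATCTTGT. The last 3 are the words of 11 bases found in most Lce1 promoters (ties in alphabetical order, words sharing over 5 bases in a row with an earlier one passed over). They were chosen from these promoters, so their counts are descriptions.
Lor (chr3:92083093-92083392, minus strand): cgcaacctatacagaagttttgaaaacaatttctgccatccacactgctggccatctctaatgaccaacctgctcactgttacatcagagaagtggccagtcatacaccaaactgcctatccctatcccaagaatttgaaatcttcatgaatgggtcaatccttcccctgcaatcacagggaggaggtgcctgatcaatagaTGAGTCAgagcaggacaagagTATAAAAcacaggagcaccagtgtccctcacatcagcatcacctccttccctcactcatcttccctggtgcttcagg
Lce1m (chr3:93019012-93019311, minus strand): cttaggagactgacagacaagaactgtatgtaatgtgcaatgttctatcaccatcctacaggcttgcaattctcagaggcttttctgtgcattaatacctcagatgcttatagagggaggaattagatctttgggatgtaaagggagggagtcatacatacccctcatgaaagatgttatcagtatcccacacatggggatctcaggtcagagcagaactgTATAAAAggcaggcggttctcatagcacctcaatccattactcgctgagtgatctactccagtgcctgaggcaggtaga
Lce1a1 (chr3:92648258-92648557, minus strand): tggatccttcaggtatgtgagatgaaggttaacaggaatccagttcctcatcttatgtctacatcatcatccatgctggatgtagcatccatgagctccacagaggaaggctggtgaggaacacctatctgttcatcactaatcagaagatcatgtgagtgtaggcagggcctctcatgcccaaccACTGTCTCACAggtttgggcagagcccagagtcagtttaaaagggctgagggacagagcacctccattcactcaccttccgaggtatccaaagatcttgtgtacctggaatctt
Lce1e (chr3:92709025-92709324, minus strand): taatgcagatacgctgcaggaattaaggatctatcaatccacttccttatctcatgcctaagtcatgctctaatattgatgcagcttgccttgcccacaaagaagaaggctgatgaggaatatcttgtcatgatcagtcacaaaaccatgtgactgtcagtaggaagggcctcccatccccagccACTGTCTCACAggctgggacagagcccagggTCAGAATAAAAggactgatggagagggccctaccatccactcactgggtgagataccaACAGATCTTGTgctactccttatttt
ACTGTCTCACA was found in 8 of the 13 Lce1 promoters and in 0.0426% of 32851 mouse promoters of the same length. TCAGAATAAAA was found in 8 of 13, against 0.0670% of all, and ACAGATCTTGT in 7 of 13, against 0.0365% of all. The Lce1e promoter held all 3, Lce1a1 held the first, and Lce1m held none but had TATAAAA, as did Lce1d and Lor and 5.48% of all promoters. TGANTCA was in the Lor promoter and in 0 of the 13 Lce1 promoters, against 7.81% of all.

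Lce1m was the most abundant Lce1 gene in every library. It reached 58573, 55738 and 44588 counts per 1000000 UMIs of the class (CPM) in late cells, against 1787, 892 and 1062 CPM in early cells. Lce1a1 followed with 35087, 21030.5 and 29039 CPM in late cells, against 338, 63.3 and 206 CPM in early cells. Lce1k, the lowest, had 1345, 140.1 and 409 CPM in late cells, against 1.51, 2.09 and 0.769 CPM in early cells. Lor, which all granular cells carry by the rule, stood at 108174, 88656 and 73144 CPM in late cells, against 61736, 43757 and 44563 CPM in early cells. These values belong to the genes that chose the cells and carry no test.

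The mix of Lce1 genes differed between late cells above the median Lce1 share of their library (upper) and those below it (lower). Lce1m made up 19.9, 33.2 and 17.3% of Lce1 UMIs in upper late cells, against 53.5, 68.0 and 47.5% in lower late cells; the libraries do not overlap. Lce1d made up 8.31, 7.54 and 11.7% in upper late cells, against 1.41, 2.01 and 4.01% in lower late cells. Lce1i made up 5.33, 3.03 and 5.11% in upper late cells, against 0.161, 0.337 and 1.15% in lower late cells. Both genes were thus higher in the mix of upper cells in every library. Lce1a1 held 14.4, 14.2 and 14.4% in upper late cells, against 19.6, 13.6 and 16.3% in lower late cells, and these ranges overlap. Lce1m had a UMI in every late cell, whereas Lce1j had one in 100, 64 and 96.7% of upper late cells, against 0, 3.85 and 13.3% of lower late cells. Cells were split by the Lce1 sum, so higher detection of sparse Lce1 genes in upper cells follows from the split, and these values are a description.

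**Figure D2:**
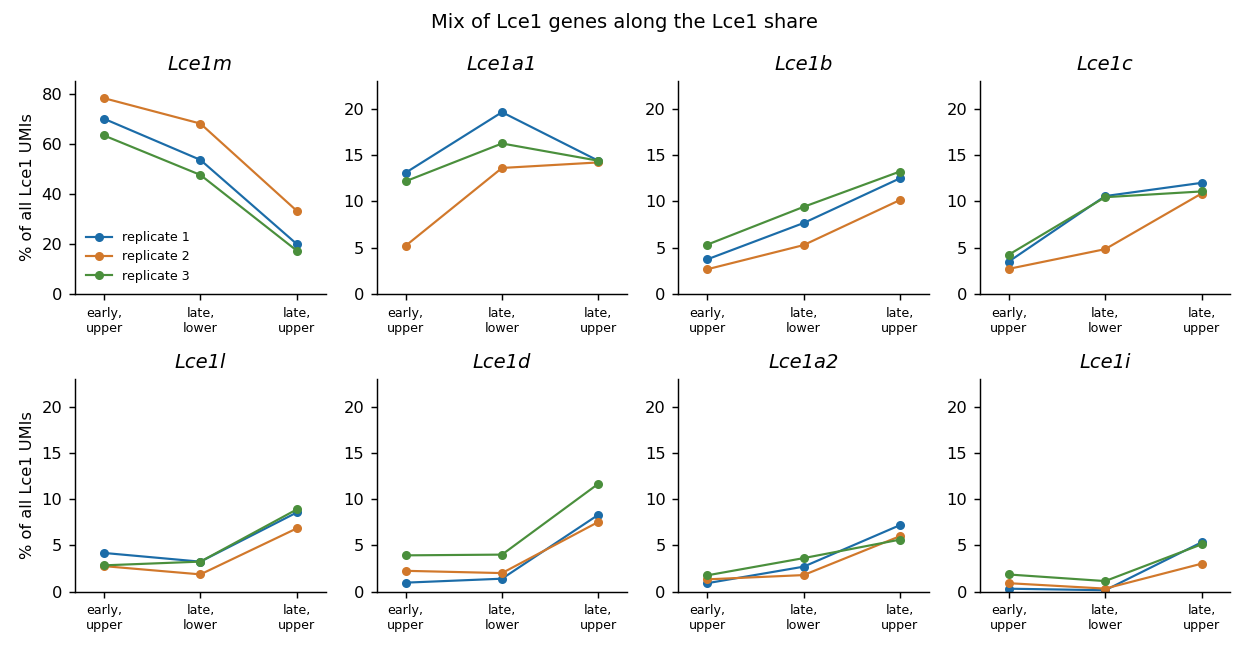
Share of all Lce1 UMIs (y, %; the scale differs for Lce1m) held by 8 Lce1 genes in early cells above the median Lce1 share and in late cells below and above it, with 1 line per library. Lce1m makes up 17.3 to 33.2% in upper late cells, against 47.5 to 68.0% in lower late cells, and Lce1b, Lce1c, Lce1l, Lce1d, Lce1a2 and Lce1i make up more in upper late cells in every library.

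By library medians, late cells spread their RNA over fewer genes. They held 1576, 1828 and 2038 genes (medians), against 3573, 2986 and 3063 genes in early cells, although their median UMI counts of 30184, 19882 and 26189.5 were no lower than the 28378, 18006 and 18892 UMIs of early cells. Without Lce1 genes and Lor the medians were lower, at 18101, 14426 and 15923 UMIs in late cells, against 26327, 17356 and 17922 UMIs in early cells. To set depth and the abundant rule genes aside, Lce1 genes and Lor were removed and each cell was thinned to 3000 UMIs. Late cells then showed 741, 978 and 964 genes, against 1118, 1133 and 1120.5 genes in early cells and 1125, 1130 and 1136 genes in spinous cells. The mean difference, late minus early, was -229.5 ± 127.7 genes (SD, n = 3 libraries), and it was negative in all 3; an exact sign-flip permutation test over 3 libraries cannot go below p = 0.25. Within the late class, upper cells had 575, 802 and 769 genes, against 940.5, 1060.5 and 984 genes in lower cells, without overlap between libraries. Single late cells were mixed, and part of them lay near the early median. In replicate 3 they ranged from 467 to 1190 genes. There, cells with 38.0 and 38.3% Lce1 showed 628 and 1031 genes. Cells shallower than 3000 UMIs were left out, which removed 0, 4 and 3 late cells and 2, 14 and 5 early cells.

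The 50 most abundant genes of a cell, counted without Lce1 genes and Lor, took 56.6, 43.4 and 43.4% of the remaining UMIs in late cells, against 35.5, 35.8 and 37.2% in early cells (medians). Mitochondrial transcripts took 1.31, 1.89 and 1.91% of the UMIs other than Lce1 and Lor in late cells, against 2.01, 2.00 and 2.11% in early cells and 3.91, 3.65 and 3.57% in spinous cells. Each library was lower in late than in early cells, by little in replicates 2 and 3.

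**Figure D3:**
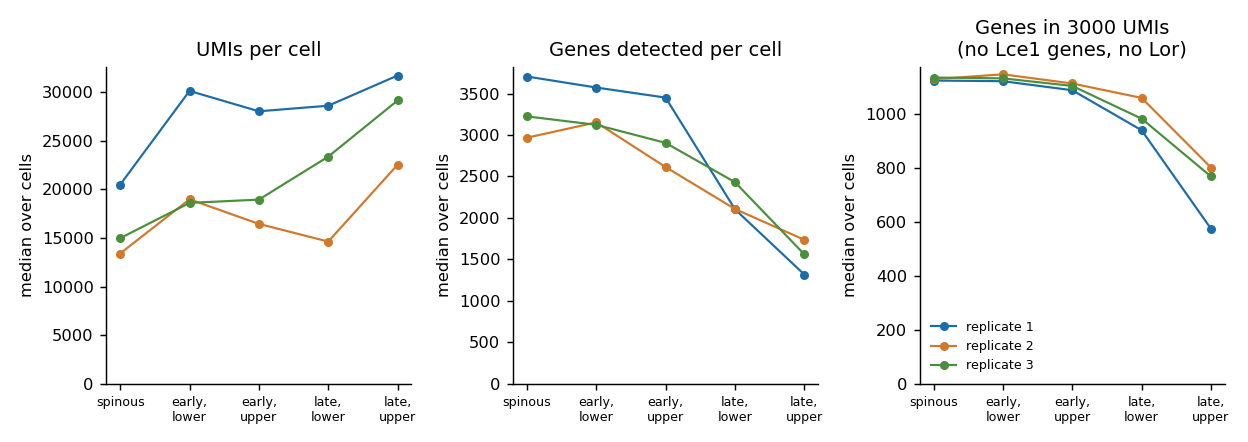
Medians over cells (y) of UMIs, of genes detected and of genes found in 3000 UMIs after removal of Lce1 genes and Lor, for 5 stages from spinous to upper late cells (x), with 1 line per library. Median UMI counts, Lce1 genes and Lor included, are highest in upper late cells in every library, whereas genes at fixed depth reach their lowest values, 575 to 802, in upper late cells.

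For the other genes, UMIs were summed per library and class and tested with edgeR's quasi-likelihood test, with the library as a block. Late, early and spinous profiles were fitted together, so the estimate of spread, the filter on low counts and the scaling draw on spinous cells too. CPM values below are relative to the profile's total scaled by TMM, which sets the typical gene equal between classes; errors of fold changes are SE, with n = 3 libraries per class. Of 8450 genes tested, 1157 rose in late cells (13.7%) and 478 fell (5.66%). Without replicate 2, 307 fell. The counts of gene lists below are to be read against these 2 shares. At least 8-fold changes in fitted values, genes with no UMI in 1 class included, were 200 rises and 24 falls. The split depends on the scaling. With totals that leave out Lce1 genes and Lor, 703 genes rose and 3670 fell, and the median gene stood at a log2 fold change of -0.80 rather than -0.13. With UMIs per cell, 606 rose and 4257 fell, and the median was -0.96. The sums per cell type do not tell a lower share from fewer molecules per cell for any single gene. Under all 6 scalings tried, 544 genes rose and 477 fell, and the genes named below belong to these unless stated. Every other scaling put the median gene lower than TMM did, from -0.20 to -1.18. Falls under TMM therefore pass the other scalings almost by construction. Counts under all 6 scalings, here and in the lists, check rises and hardly check falls.

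**Figure D4:**
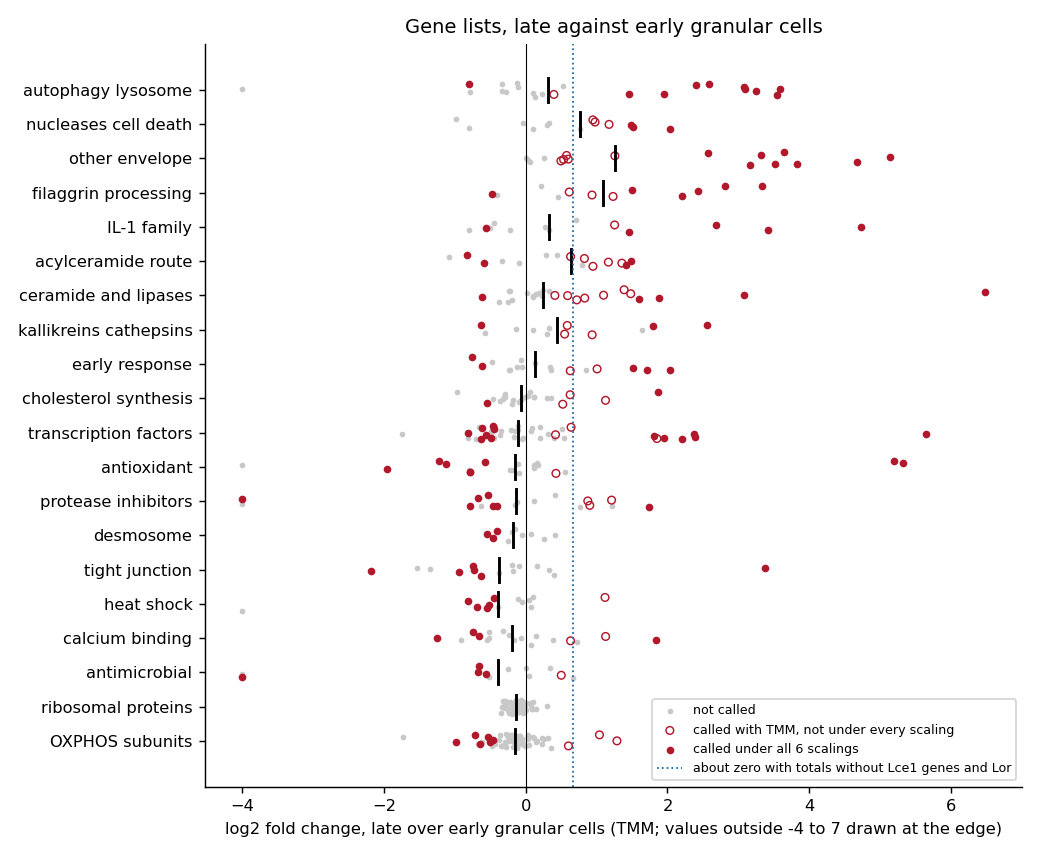
Log2 fold change of the tested members of 20 gene lists, late over early cells (x, TMM); red points passed the test, filled ones under all 6 scalings, grey ones did not pass, and black bars are medians. Autophagy, envelope and filaggrin processing genes reach values above 2, as do members of other lists, among them transcription factor, antioxidant, IL-1 family and tight junction genes. Ribosomal protein genes lie close together around -0.13. The dotted line marks roughly where zero lies with totals that leave out Lce1 genes and Lor.

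The largest rises were in genes almost absent from early cells. Kctd4, which encodes a protein of the potassium channel tetramerisation domain family, had 705, 311 and 762 CPM in late cells, against 0.655, 0 and 0.339 CPM in early cells. That is 925 UMIs in late and 2 in early cells, a ratio of TMM-scaled counts of 2019 with a 95% counting interval of 557 to 16696 (edgeR adjusted p = 5.63e-18). Gpsm1, a modulator of G-protein signalling, had 549, 307 and 352 CPM in late cells, against 0.655, 0 and 0.339 CPM in early cells, with 557 and 2 UMIs. Tmem177 had 252 UMIs in late and 1 in early cells. Tmem231 had 58 UMIs in late and 0 in early cells, at least 84.4-fold higher by a floor of 3 counts over the early cells. Genes with the largest changes were named only if all 3 libraries changed in the same direction, so that direction is no added support; of all genes tested, 16.1% had every late library above every early one and 18.2% every late library below.

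Krtap3-2 rose to 6659.9, 2338 and 1847 CPM in late cells, against 32.1, 10.5 and 4.40 CPM in early cells (log2 fold change 7.96 ± 0.34, edgeR adjusted p = 4.68e-16). It encodes a keratin-associated protein known from the hair shaft. Csnk1e, casein kinase 1 epsilon, rose by a log2 fold change of 8.47 and Edn2, the ligand endothelin 2, by 7.99. Plcxd1 had 438 UMIs in late and 4 in early cells. Adam19, a membrane-bound metalloprotease, had 104 UMIs in late and 2 in early cells, and Rusc2 had 130 and 3. These 6 were likewise named by that rule.

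With TMM, most other envelope genes tested rose with the late class, where 13.7% of all genes rose and 5.66% fell. Of 25 listed, 17 were tested, and 13 of 17 rose and 0 fell (8 and 0 under all 6 scalings; median log2 fold change 1.26). With totals without Lce1 genes and Lor, 9 were higher and 4 lower (median 0.58), where 703 of all genes rose and 3670 fell. Crct1, a cysteine-rich protein of the epidermal differentiation complex, had 98911, 83715 and 78812 CPM in late cells, against 11027, 7166 and 8215 CPM in early cells (log2 fold change 3.32 ± 0.20, edgeR adjusted p = 3.79e-13). Every late library lay well above every early one. Lce3c had 2509, 2971 and 4347 CPM in late cells, against 115, 59.7 and 111 CPM in early cells (log2 fold change 5.14 ± 0.20, edgeR adjusted p = 1.32e-16). Among small proline-rich envelope genes, only 4 of 14 listed passed the filter on low counts: Sprr2h rose (log2 fold change 2.87 ± 0.38, edgeR adjusted p = 1.27e-06), Sprr1a rose (log2 fold change 2.28 ± 0.45, edgeR adjusted p = 3.51e-04) and Sprr1b fell (log2 fold change -2.07 ± 0.66, edgeR adjusted p = 0.0261). The libraries of late and early cells overlap for all 3, with replicate 3 highest in late cells, and without replicate 3 Sprr1b did not pass (-2.85). DESeq2 called none of the 3. Copies of this family are alike, so these counts are uncertain.

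Filaggrin rose with TMM, and so did most of the listed enzymes that process it. Beside each list here stand the 13.7% of all genes that rose and the 5.66% that fell. Among S100-fused proteins, 2 of 3 rose and 0 fell (0 and 0 under all 6 scalings; median log2 fold change 1.22). Flg, filaggrin, had 6466, 4668 and 10203 CPM in late cells, against 2201, 1488 and 3374 CPM in early cells (log2 fold change 1.59 ± 0.28, edgeR adjusted p = 7.31e-05), and Flg2 had 12188, 12603 and 9288 CPM in late cells, against 4978, 4925 and 4608 CPM in early cells (log2 fold change 1.22 ± 0.21, edgeR adjusted p = 5.45e-05); neither call held under all 6 scalings. Hrnr, hornerin, did not pass (log2 fold change 0.08 ± 0.15) and lay below early cells with totals without Lce1 genes and Lor (-0.61). Of the filaggrin processing list, 8 of 12 rose and 1 fell (5 and 1 under all 6 scalings; median log2 fold change 1.08). Asprv1, the aspartic protease that cleaves profilaggrin, had 25824, 21695 and 20745 CPM in late cells, against 5178, 4436 and 5208 CPM in early cells (log2 fold change 2.21 ± 0.18, edgeR adjusted p = 2.46e-10). Prss8, the serine protease prostasin, rose more (log2 fold change 3.33 ± 0.15, edgeR adjusted p = 1.04e-15). Hal, which turns histidine into urocanic acid, fell (log2 fold change -0.47 ± 0.13, edgeR adjusted p = 0.0116), but not past the threshold without replicate 1 (-0.38) or 2 (-0.51). Of the transglutaminases, 1 of 3 rose and 0 fell (0 and 0 under all 6 scalings; median log2 fold change -0.39); Tgm1, which cross-links the envelope, stood at 566, 622 and 542 CPM in late cells, against 256, 213 and 223 CPM in early cells, a rise that did not hold under all scalings.

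Proteases and their inhibitors were mixed, to be read against 13.7% of all genes higher and 5.66% lower. Among kallikreins and cathepsins, 5 of 12 rose and 1 fell (2 and 1 under all 6 scalings; median log2 fold change 0.44). Klk9 rose (log2 fold change 2.56 ± 0.13, edgeR adjusted p = 2.30e-14) and Ctsl, cathepsin L, rose (log2 fold change 1.80 ± 0.15, edgeR adjusted p = 2.13e-10), whereas Klk5, a kallikrein of desquamation, fell to 249.8, 322 and 455 CPM in late cells, against 478, 522 and 603 CPM in early cells (log2 fold change -0.63 ± 0.14, edgeR adjusted p = 0.00118). Among protease inhibitors, 4 of 18 rose and 6 fell (1 and 6 under all 6 scalings; median log2 fold change -0.14). Serpinb8 rose (log2 fold change 1.75 ± 0.14, edgeR adjusted p = 8.36e-11). Spink5, the kallikrein inhibitor LEKTI, had 2192, 2351 and 2436 CPM in late cells, against 2957, 3169.5 and 3096 CPM in early cells (log2 fold change -0.40 ± 0.14, edgeR adjusted p = 0.0427). Its fall missed the threshold without replicate 1 (-0.39), 2 (-0.43) or 3 (-0.46).

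Lipid genes changed in both directions, as did all genes tested, with 13.7% higher and 5.66% lower. Of the acylceramide route, 7 of 15 rose and 2 fell (2 and 2 under all 6 scalings; median log2 fold change 0.63). Nipal4 (log2 fold change 1.49) and Aloxe3, a lipoxygenase of the lipid envelope (1.42), rose, and Elovl1, a fatty acid elongase, fell (log2 fold change -0.82 ± 0.14, edgeR adjusted p = 3.28e-05). Of the ceramide enzymes and lipases, 11 of 25 rose and 1 fell (4 and 1 under all 6 scalings; median log2 fold change 0.25). Smpd3, a neutral sphingomyelinase, had 3280, 4055 and 5199.8 CPM in late cells, against 484, 428 and 543 CPM in early cells (log2 fold change 3.08 ± 0.19, edgeR adjusted p = 9.09e-13). Smpd1, the lysosomal acid sphingomyelinase, fell (log2 fold change -0.61 ± 0.15, edgeR adjusted p = 0.00456), with overlap between libraries and no call without replicate 1 (-0.44). Plb1, phospholipase B, had 97 UMIs in late and 5 in early cells. In cholesterol synthesis, 4 of 23 rose and 1 fell (1 and 1 under all 6 scalings, median log2 fold change -0.06), close to the shares of all genes with TMM. With totals without Lce1 genes and Lor, 1 was higher and 17 lower (median -0.73), where 703 of all genes rose and 3670 fell. Acat2, which makes acetoacetyl-CoA, was higher (log2 fold change 1.87 ± 0.24, edgeR adjusted p = 7.05e-07).

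With TMM, genes for clearing organelles and DNA were often higher in late cells, to be read against the 13.7% of all genes that rose and the 5.66% that fell. Of 22 autophagy and lysosome genes tested, 10 of 22 rose and 1 fell (9 and 1 under all 6 scalings; median log2 fold change 0.31). With totals without Lce1 genes and Lor, 9 were higher and 8 lower (median -0.37), where 703 of all genes rose and 3670 fell. Gabarapl2, a member of the ATG8 family that coats autophagosomes, had 6993, 3810.3 and 4849 CPM in late cells, against 472, 432 and 414 CPM in early cells (log2 fold change 3.54 ± 0.17, edgeR adjusted p = 3.51e-15). Bnip3l, a receptor that marks mitochondria for autophagy, had 4251, 3236 and 3385 CPM in late cells, against 495, 386 and 404 CPM in early cells (log2 fold change 3.08 ± 0.15, edgeR adjusted p = 8.21e-15). Its relative Bnip3 rose by a log2 fold change of 3.59 and Map1lc3a, another ATG8 protein, by 1.96. For these 4 genes the late libraries lay above all early ones. Atg3, which attaches ATG8 proteins to lipid, fell (log2 fold change -0.80 ± 0.18, edgeR adjusted p = 0.00119), as did Rubcn, a negative regulator of autophagy (log2 fold change -2.30 ± 0.45, edgeR adjusted p = 3.21e-04; -2.92 without replicate 3). Of 31 nuclease and cell death genes 13 were tested, and 6 of 13 rose and 0 fell (3 and 0 under all 6 scalings; median log2 fold change 0.76). With totals without Lce1 genes and Lor, 4 were higher and 3 lower (median 0.09). Trex2 (log2 fold change 2.04) and Dnase1l2 (1.52), nucleases that degrade DNA in cornifying cells, rose.

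Of antioxidant genes, 3 of 20 rose and 6 fell (2 and 6 under all 6 scalings; median log2 fold change -0.15). The share that rose is close to the 13.7% of all genes, whereas 5.66% of all genes fell. Hmox1, haem oxygenase 1, had 1854, 1547 and 1152 CPM in late cells, against 55.7, 34.4 and 34.9 CPM in early cells (log2 fold change 5.19 ± 0.16, edgeR adjusted p = 2.09e-18). Txnrd1, thioredoxin reductase 1, had 1038, 755 and 967 CPM in late cells, against 17.0, 25.7 and 24.0 CPM in early cells (log2 fold change 5.32 ± 0.18, edgeR adjusted p = 5.73e-18). Neither gene overlaps between classes.

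Cytokine genes of the interleukin 1 family were next, followed by antimicrobial genes, both beside 13.7% of all genes higher and 5.66% lower. Of 13 tested, 5 of 13 rose and 1 fell (4 and 1 under all 6 scalings; median log2 fold change 0.32). Il18 had 2414, 2168 and 1719.9 CPM in late cells, against 373, 285 and 319 CPM in early cells (log2 fold change 2.68 ± 0.15, edgeR adjusted p = 1.51e-13), and Il1r2, a decoy receptor, had 916, 706 and 531 CPM in late cells, against 102, 56.7 and 46.7 CPM in early cells (log2 fold change 3.43 ± 0.19, edgeR adjusted p = 1.64e-13). Il1a had 144, 64.0 and 70.3 CPM in late cells, against 0, 0.436 and 7.79 CPM in early cells (log2 fold change 4.73 ± 0.53, edgeR adjusted p = 6.61e-08). All late libraries lay above all early ones for the 3 genes, and the fitted change of Il1a was 4.03 without replicate 1 and 8.39 without replicate 3. Among antimicrobial genes, 1 of 12 rose and 4 fell (0 and 4 under all 6 scalings; median log2 fold change -0.39); Ly6d, a surface protein of the Ly6 family that was counted in this list, fell (log2 fold change -0.67 ± 0.14, edgeR adjusted p = 5.15e-04).

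Among 41 transcription factors tested, 9 of 41 rose and 7 fell (6 and 7 under all 6 scalings, median log2 fold change -0.11). For this and the next 3 lists, 13.7% of all genes rose and 5.66% fell. Runx1 had 166, 106 and 71.6 CPM in late cells, against 3.93, 1.31 and 1.69 CPM in early cells (log2 fold change 5.65 ± 0.35, edgeR adjusted p = 9.65e-13). Mxd1, a repressor that competes with Myc for its partner Max, rose (log2 fold change 2.38 ± 0.14, edgeR adjusted p = 4.20e-13), and Barx2, a homeobox gene, fell (log2 fold change -0.82 ± 0.16, edgeR adjusted p = 3.56e-04). Of the early response genes, 5 of 17 rose and 2 fell (3 and 2 under all 6 scalings; median log2 fold change 0.13), with Ier3 (2.04) and Jun (1.51) higher and Klf6 lower (-0.75). Of the endoplasmic reticulum stress genes, 3 of 18 rose and 1 fell (1 and 1 under all 6 scalings, median log2 fold change -0.18), close to the shares of all genes with TMM. Ppp1r15a, which restores translation after stress, rose (2.50) and Xbp1 fell (-0.92). Of the heat shock genes, 1 of 13 rose and 5 fell (0 and 5 under all 6 scalings; median log2 fold change -0.40): Hspb1, a small heat shock protein, had 2930.4, 4406 and 3245 CPM in late cells, against 5724, 5794 and 5326 CPM in early cells, a fall, and Dnajb1 rose (1.12), though not under all scalings.

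Keratins and junctions changed in both directions, to be set beside 13.7% of all genes higher and 5.66% lower. Of the suprabasal keratins, 3 of 9 rose and 3 fell (1 and 3 under all 6 scalings; median log2 fold change 0.22). Krt10 had 7520.2, 6624 and 7987 CPM in late cells, against 5299, 5245 and 6825 CPM in early cells; it did not pass (log2 fold change 0.35 ± 0.13, edgeR adjusted p = 0.0501) and was lower in late cells with totals without Lce1 genes and Lor (-0.33). Krt23 rose (log2 fold change 1.83 ± 0.15, edgeR adjusted p = 3.51e-10). Krt17, a keratin of hair follicles and of stressed epidermis, fell to 0, 12.8 and 3.64 CPM in late cells, against 72.7, 54.0 and 48.8 CPM in early cells (log2 fold change -3.14 ± 0.45, edgeR adjusted p = 4.28e-06; -4.30 without replicate 2). Krt1 stood at 77.7, 16.5 and 14.6 CPM in late cells, against 21.0, 24.4 and 430.2 CPM in early cells; its fall (log2 fold change -2.57 ± 0.85, edgeR adjusted p = 0.0331) rests on replicate 3, without which the log2 fold change was 0.54, against -3.69 without replicate 1. Of the desmosome genes, 0 of 10 rose and 3 fell (0 and 3 under all 6 scalings; median log2 fold change -0.17), among them Perp, a membrane protein of desmosomes, lower (log2 fold change -0.55 ± 0.13, edgeR adjusted p = 0.0029). Of the tight junction genes, 1 of 15 rose and 5 fell (1 and 5 under all 6 scalings; median log2 fold change -0.38): Cldn4 fell (log2 fold change -0.74 ± 0.14, edgeR adjusted p = 3.08e-04) and Pard6b, a polarity protein, rose (log2 fold change 3.38 ± 0.30, edgeR adjusted p = 1.04e-09). Of the gap junction genes, 3 of 7 rose and 0 fell (1 and 0 under all 6 scalings; median log2 fold change 0.42).

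Of the calcium-binding genes, 3 of 18 rose and 3 fell (1 and 3 under all 6 scalings, median log2 fold change -0.20). Here and for the lists that follow, 13.7% of all genes rose and 5.66% fell. Calm4, a calmodulin-like protein of mouse epidermis, had 34754, 27093 and 30788 CPM in late cells, against 8592, 7532 and 9668 CPM in early cells (log2 fold change 1.84 ± 0.13, edgeR adjusted p = 1.90e-11). Of the cytoskeletal and adhesion genes, 4 of 17 rose and 2 fell (2 and 2 under all 6 scalings; median log2 fold change -0.01), with Aif1l, an actin-binding protein, at 2991, 2545 and 2096 CPM in late cells, against 148, 136 and 110.1 CPM in early cells (log2 fold change 4.27 ± 0.18, edgeR adjusted p = 6.65e-16). Of glycolysis genes, 1 of 13 rose and 2 fell (0 and 2 under all 6 scalings; median log2 fold change -0.54), and of cell cycle genes, 1 of 8 rose and 2 fell (0 and 2 under all 6 scalings; median log2 fold change -0.61); Eno1, the glycolytic enzyme enolase 1, fell (-0.98).

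Whether ribosomal protein genes passed the test depended on the scaling. Of all genes, 13.7% rose and 5.66% fell under TMM, and 3670 genes fell with totals without Lce1 genes and Lor. Under TMM, 0 of 77 rose and 0 fell (0 and 0 under all 6 scalings; median log2 fold change -0.13), whereas all 77 were called lower with totals without Lce1 genes and Lor. Rplp0 had 8614, 9113 and 10520 CPM in late cells, against 9997, 10684 and 11305 CPM in early cells. Of the subunits of oxidative phosphorylation, 3 of 70 rose and 6 fell (0 and 6 under all 6 scalings; median log2 fold change -0.14), against 2 higher and 62 lower with those totals.

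Large falls were in genes of low count. Defb6, a beta-defensin, had 0 UMIs in late cells and 1.31, 33.1 and 42 CPM in early cells, at least 15.4-fold lower by a floor of 3 counts over the late cells; it did not pass without replicate 3. BC100530 was at least 14.1-fold and Krt16 at least 5.12-fold lower on the same basis. Their early UMIs came mostly from replicate 3, which had 60.6 CPM of BC100530 and 22.0 CPM of Krt16. Car6, a secreted carbonic anhydrase, fell in every library to 16.6, 56.7 and 70.3 CPM in late cells, against 181, 201 and 189 CPM in early cells (log2 fold change -1.78 ± 0.25, edgeR adjusted p = 3.65e-06). Topors, a ubiquitin and SUMO ligase, had 5.55, 7.31 and 7.28 CPM in late cells, against 25.6, 23.5 and 23.7 CPM in early cells (log2 fold change -1.79 ± 0.37, edgeR adjusted p = 6.03e-04). Cd74, a marker of antigen-presenting cells, had 3 UMIs in late cells, against 172 in early cells, most of them in replicate 2, without which it did not pass (-1.51).

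Markers of other cell types were rare in the late cells. None of 4 melanocyte, 4 fibroblast or 3 Merkel cell markers was detected. Of 5 Langerhans cell markers 2 were, with Cd207, H2-Ab1 and Ptprc at 0 and a summed level of 0 to 5.31 CPM of all UMIs in late cells, against 5.29 to 150.1 CPM in early cells. Of 5 T cell markers 3 were, with Trdc and Cd3d at 0, and of 5 follicle markers 3, with Cd34 and Lgr5 at 0. Of 4 sebocyte markers 2 were, and of 2 endothelial markers Pecam1, with 57 UMIs that all came from replicate 3, while Cdh5 was at 0. The 6 basal markers summed to 0 to 156.0 CPM in late cells, against 396.9 to 584.3 CPM in early cells, and 3 cycling markers to 0 to 4.80 CPM, against 8.08 to 29.5 CPM. The 4 spinous markers summed to 31313 to 35804 CPM in late cells, against 48835 to 50756 CPM in early and 32422 to 35457 CPM in spinous cells. Of the granular markers, Hrnr and Ivl took a lower share of all UMIs in late than in early cells in every library. Ivl had 66.4, 120 and 114 CPM, against 119, 196 and 319 CPM. Flg, Flg2 and Lor took a higher share. All 4 spinous and 5 granular markers were detected. So were the 5 late granular markers, Lce1a1, Lce1b, Lce1c, Lce1m and Lor. These 5 are genes of the rule that chose the cells, so their detection is no support for identity. The part of the rare markers in the results was not tested.

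The late cells were then ordered within the class. Late cells above the median Lce1 share of their library numbered 6, 25 and 30, against 6, 26 and 30 below it. Profiles of early cells, split at their own median Lce1 share, were fitted together with these and share the estimate of spread. Of 4916 genes tested, 372 rose in upper late cells (7.57%) and 49 fell (0.997%); 17 fell without replicate 2 and 32 without replicate 3. Under all 6 scalings 142 rose and 49 fell, and with totals without Lce1 genes and Lor 261 rose and 685 fell. Falls were again hardly checked by the other scalings. The median gene stood at -0.04 with TMM, with or without Lce1 genes and Lor in the table, and lower with the rest. These cells are the late cells of the comparison above, so likeness between both sets of values is no independent support.

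Kctd4 and Gpsm1, nearly absent from early cells, were higher in upper late cells. Kctd4 had 1528, 514 and 1378 CPM in upper late cells, against 61.0, 28.8 and 59.5 CPM in lower late cells (log2 fold change 4.46 ± 0.22, edgeR adjusted p = 2.73e-10). Gpsm1 had 1244, 508 and 587 CPM in upper late cells, against 20.3, 28.8 and 59.5 CPM in lower late cells (edgeR adjusted p = 4.26e-08), or 503 against 54 UMIs. Mapk8, the stress kinase JNK1, had 70 UMIs in upper and 3 in lower late cells, and Nudt16, a nucleotide hydrolase, had 33 and 1. Il1a had 111 UMIs in upper and 8 in lower late cells. Rcbtb2 had 479, 61.8 and 157 CPM in upper late cells, against 20.3, 0 and 6.10 CPM in lower late cells (log2 fold change 4.81 ± 0.43, edgeR adjusted p = 1.21e-07). Sprr1a had 298, 153 and 1219 CPM in upper late cells, against 54.2, 26.4 and 6.10 CPM in lower late cells (log2 fold change 4.82 ± 0.84, edgeR adjusted p = 4.05e-04), and its change was 2.53 without replicate 3, and DESeq2 did not call it (3.29). Of all genes tested, 11.3% had every upper library above every lower one, as these genes do.

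Part of the autophagy genes rose along this order too. List counts here are to be read against 7.57% of all genes higher and 0.997% lower in upper late cells. Of autophagy and lysosome genes, 8 of 19 rose and 0 fell (4 and 0 under all 6 scalings; median log2 fold change 0.58). Gabarapl2 had 13056, 5306 and 7247 CPM in upper late cells, against 1708, 1086 and 1374 CPM in lower late cells (log2 fold change 2.56 ± 0.22, edgeR adjusted p = 7.67e-08). Bnip3l had 6554, 4070.2 and 4207 CPM in upper late cells, against 1763, 1244 and 1514 CPM in lower late cells (log2 fold change 1.69 ± 0.18, edgeR adjusted p = 1.37e-06). For both genes all upper libraries lay above all lower ones. The nucleases Trex2 (log2 fold change 0.37) and Dnase1l2 (0.11) did not pass, and with totals without Lce1 genes and Lor their values were -0.08 and -0.34. Of antioxidant genes, 2 of 13 rose and 0 fell (2 and 0 under all 6 scalings; median log2 fold change 0.71): Txnrd1 had 2072, 1132 and 1577 CPM in upper late cells, against 183, 156 and 188 CPM in lower late cells (log2 fold change 3.14 ± 0.24, edgeR adjusted p = 2.14e-08), and Hmox1 rose as well (log2 fold change 1.79 ± 0.23, edgeR adjusted p = 1.40e-05). Plb1 (2.65) and Runx1 (2.55, or 3.77 without replicate 3) were also higher. Of other envelope genes, 8 of 17 rose and 0 fell (4 and 0 under all 6 scalings; median log2 fold change 0.68), led by Lce6a with 5349.5, 2011 and 5370.2 CPM in upper late cells, against 603, 472 and 519.9 CPM in lower late cells (log2 fold change 2.94 ± 0.27, edgeR adjusted p = 2.51e-07). Crct1, Smpd3 and Calm4 had log2 fold changes of 1.12, 1.43 and 1.34 that passed with TMM but not under all 6 scalings.

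Lower genes were fewer than higher ones with TMM, with or without Lce1 genes and Lor in the table, and more numerous with the other 4 scalings. Wfdc18 had 2 UMIs in upper and 64 in lower late cells, and Ampd2, an AMP deaminase, had 2 and 31. Ampd2 did not pass without replicate 2 (-2.46), nor did Wfdc18 without replicate 3 (-6.00). Rora, a nuclear receptor, had 466, 839 and 798 CPM in upper late cells, against 1214, 1095 and 1107 CPM in lower late cells (log2 fold change -0.64 ± 0.20, edgeR adjusted p = 0.0476); without replicate 1, 2 or 3 the change was -0.43, -0.83 and -0.75, none past the threshold. S100a14 had 959, 1038 and 1011 CPM in upper late cells, against 1600, 1618 and 1666 CPM in lower late cells (log2 fold change -0.69 ± 0.17, edgeR adjusted p = 0.0102), and missed the threshold without replicate 2 (-0.73) or 3 (-0.67). For Rora and S100a14 no upper library reached a lower one, as for 9.52% of all genes tested. Krt10 did not pass (log2 fold change -0.18 ± 0.20, edgeR adjusted p = 0.703), nor did Il18 (log2 fold change 0.41 ± 0.27, edgeR adjusted p = 0.461). Of ribosomal protein genes, 0 of 77 rose and 6 fell (0 and 6 under all 6 scalings, median log2 fold change -0.48), against 7.57% of all genes higher and 0.997% lower.

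The genes differed in the stage at which they were first high, as CPM of UMIs other than Lce1 genes and Lor over 5 stages shows. Crct1 had 12.9, 17.5 and 28.1 CPM in spinous cells, 6453, 3281 and 3972 CPM in early lower, 21721, 16122 and 15423 CPM in early upper, 59361, 47158 and 50397 CPM in late lower and 93545, 80274 and 73810 CPM in late upper cells. It was thus far above spinous cells in early cells already, and higher again at each later stage in every library. Gabarapl2 had 184, 197 and 161 CPM in spinous, 542, 485 and 399 CPM in early lower, 629, 614 and 585 CPM in early upper, 1892, 1262 and 1553 CPM in late lower and 9508, 4538 and 6396 CPM in late upper cells. Txnrd1 had 17.7, 22.8 and 21.4 CPM in spinous, 9.11, 25.7 and 25.4 CPM in early lower, 34.5, 40.6 and 31.8 CPM in early upper, 203, 181 and 212 CPM in late lower and 1509, 968 and 1392 CPM in late upper cells. Its early upper levels lay above its spinous levels in every library, and its late lower and late upper levels were each higher again. Kctd4 had at most 1.73 CPM in any spinous or early profile and 67.6, 33.4 and 67.2 CPM in late lower and 1113, 439.6 and 1216 CPM in late upper cells. Stages were cut from the Lce1 and Lor shares themselves, and spinous cells also from the Krt10 share, so these levels are a description.

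**Figure D5:**
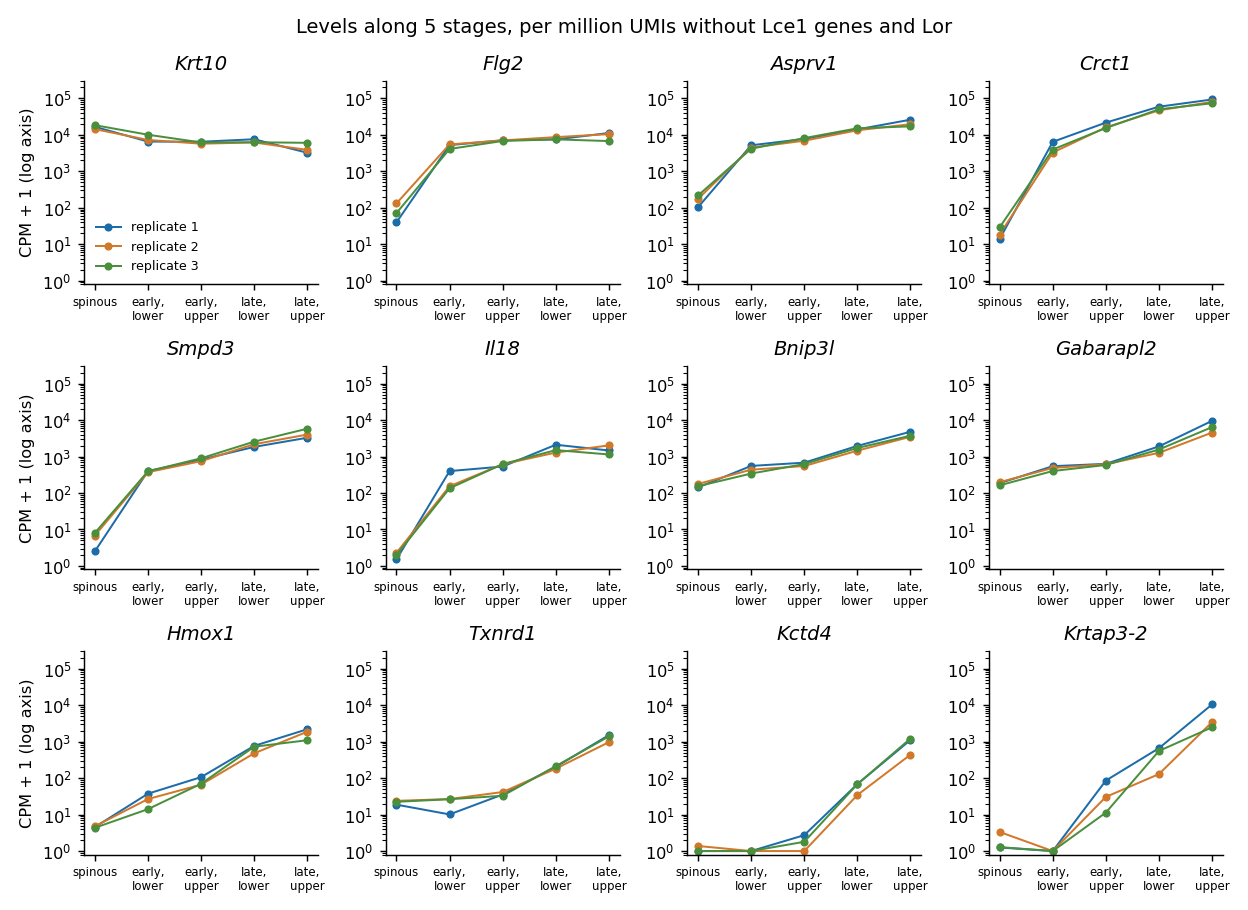
Levels of 12 genes (y, CPM of UMIs other than Lce1 genes and Lor, plus 1, on a logarithmic axis) in 5 stages from spinous to upper late cells (x), with 1 line per library. Crct1, Smpd3 and Il18 climb between spinous and early cells, and Kctd4, Txnrd1 and Gabarapl2 climb mostly from early upper to late upper cells. Krt10 is highest in spinous cells, which were chosen by their Krt10 share.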

How the data were processed

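The authors deposited UMI count matrices made with Cell Ranger 3.1.0 against mm10, per the submitters' processing notes; all 31053 features per library were read. Barcodes under 500 genes or over 10% mitochondrial UMIs were dropped, and classes were cut from Lor, Lce1, Krt10 (0.5%) and Krt14 (0.5%) shares. Counts were summed per library and class (at least 5 cells) and tested with edgeR 4.0.16 (R 4.3.3; TMM, filterByExpr, quasi-likelihood, library block, Benjamini-Hochberg, adjusted p of 0.05). Late and early cells share a library, so profiles are paired by construction; their deviations correlated at 0.019 to 0.045. The members and the 29 gene lists were chosen with earlier results of these data known, and list counts are not independent evidence. Named genes are the 10 largest rises and falls among called genes with 20 CPM and 1 direction in 3 libraries, and per list the largest rise, the largest fall and up to 3 highest genes; of these, the ones printed were picked with values known. Lce1, Lor and mitochondrial genes stayed in the tables but out of the counts of calls, and predicted genes are not named. The tests were tried on simulated counts with 1 mean profile for all classes apart from the changed genes. These counts lack the Lce1 and Lor difference between classes, so the trial cannot judge the scalings. Of 100 genes of above-median level changed 2-fold, 87 were recovered for late against early cells and 71 for upper against lower late cells. Doublets were called with Scrublet in scanpy 1.11.5. Intervals and floors cover counting error only. Alternatives were other scalings, filters, thresholds, DESeq2 1.42.0, no block and each library left out. Others were late and early profiles only, and cells chosen on a random 50% of UMIs and tested on the rest. UMIs per cell was added after the data were seen.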

Additional observations from a re-analysis of the deposited data

Results flagged for a closer look

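Data outside the comparisons held a signal of the same kind: 4 barcodes removed by the filters on genes or mitochondrial UMIs, all in replicate 2, met both the Lor and the Lce1 threshold, against 51 late cells kept in that library. With at least 200 genes in place of 500, late cells numbered 12, 54 and 60 in the 3 libraries, so 3 of these barcodes had between 200 and 500 genes. Another 18 removed barcodes passed the Lor threshold with less than 2% Lce1.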

How the results depend on the processing

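Gene counts turned on the scaling. For late against early cells, higher and lower genes numbered 1157 and 478 with TMM, 544 and 5349 with total UMIs, 661 and 4127 with totals without Lce1 genes, 703 and 3670 also without Lor, and 606 and 4257 with UMIs per cell; for upper against lower late cells they were 372 and 49, then 148 and 1979, 238 and 787, 261 and 685, and 159 and 587. DESeq2 called 314 genes lower for late against early cells, and without the filter on low counts 122 were lower in upper late cells. Leaving out a library gave 909 to 1115 higher and 307 to 352 lower genes for late against early cells, and 264 to 326 higher and 17 to 38 lower for upper against lower ones; fewer samples enter these fits. Without the replicate block the counts were 1111 and 385, and 330 and 35. With late and early profiles only, without the spinous ones, 1098 genes were higher and 323 lower in late cells. Among the printed genes, calls lost without the block were those of Defb6, BC100530, Krt16, Cd74, Sprr1b, Flg, Spink5, Smpd1 and Krt1 in late against early cells, and of Rora and Wfdc18 in upper against lower late cells. DESeq2 did not call BC100530, Cd74, Krt16, Krt1, Sprr1a, Sprr1b, Sprr2h and Spink5 in late against early cells, nor Sprr1a in upper against lower late cells. Directions reversed for Hrnr (-1.01, -0.70, -0.61 and -0.82) and Krt10 (-0.73, -0.43, -0.33 and -0.54) under total UMIs, totals without Lce1 genes, totals also without Lor and UMIs per cell, and for Krt1 over the libraries left out (-3.69 to 0.54). The cause was not tested. The share of late cells ranged from 1.79 to 2.53% with a library left out, and the difference in genes at fixed depth from -266.8 to -155.8. Replicate 1 has 12 late cells, which limits the precision of its profile.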
